A study of Homo sapiens with 1 sample.

Results

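The genes described here are 113 abundant nuclear genes whose read pairs had the first read almost always on the strand given for the gene, in the negative control of a PAR-CLIP experiment on BRCA1 and BARD1. They were drawn from 63494 listed genes by 4 limits. A gene had to lie outside the mitochondrial chromosome, carry more than 350 bases of exon, hold at least 300 read pairs assigned by strand, and have more than 90% of these pairs in the same-strand column. Genes on the short arms of chromosomes 13, 14, 15, 21 and 22 were to be left out, but 0 genes there passed the other limits. The first 3 limits and the short arms left 373 genes, of which the 113 make up 30.3%. With at least 30 in place of 300 pairs, the share over 90% was 10.8% of 4918 genes. The genes were selected on their pairs and strand shares in this library, so both are given as description and carry no test.

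The library came from HEK293T, a human embryonic kidney cell line, stably carrying the SFB empty vector, that is, a tag of S-protein-binding, FLAG and streptavidin-binding peptides fused to no protein. In the treatment given by the labels, the cells took up 0.1 mM 6-thioguanosine and received 0.4 J of UV light per square centimetre at 365 nm. RNA was then recovered on streptavidin and FLAG resins in tandem. Only 1 library of this control was used, the libraries of tagged BARD1 and of the BRCA1 BRCT domain were not analysed here, and no value carries a replicate error. All groups of genes below therefore come from the same cells under the same treatment, and differences between them are descriptions of 1 library without a test.

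In a strand-resolved library the 2 reads of a pair keep the orientation of the RNA they were copied from. The methods of the study name a stranded kit for pico input, the SMARTer Stranded Total RNA-seq kit V2. Which column holds sense RNA is not given in the sources used here. Depending on the kit, the first read matches the gene strand or its complement, and RNA transcribed across a gene in the antisense direction falls into the other column. The pairs of the genes described here may thus be sense or antisense to the annotated gene, which was not tested. STAR, the aligner used by the authors, gives 3 counts for each gene, namely pairs counted without regard to strand, pairs whose first read lies on the gene strand (same-strand pairs) and pairs whose first read lies on the complement (opposite-strand pairs). A pair that touches exons of more than 1 gene is ambiguous and is counted for none of them in that column. An RNA-binding pull-down with an empty tag recovers the RNA that adheres to resins and tag, and abundant transcripts of any class can appear in it. The tables name genes by identifiers of the CHM13 annotation, of which 0 were found in the gene name tables used here, so the class or function of these genes is not given, the identity of the cell line could not be checked on marker genes, and no sequence is shown. Positions are on T2T-CHM13 v1.1.

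Of 33677888 cleaned read pairs given to STAR, 4051714 were placed on the exons of exactly 1 gene. Over the nuclear genes, 644626 pairs were same-strand and 2571299 were opposite-strand, so that 20.04% were same-strand. This proportion rested on 1 gene on chromosome X, singled out after its values were seen, with 6638 same-strand and 1934778 opposite-strand pairs, which are 75.2% of all nuclear opposite-strand pairs. Without it, 637988 pairs were same-strand and 636521 opposite-strand, or 50.1% same-strand. The 113 same-strand genes held 382784 same-strand pairs against 4157 opposite-strand pairs, a share of 98.9% (95% Wilson interval 98.89% to 98.96%). They contained 59.4% of all nuclear same-strand pairs (95% interval 59.26% to 59.50%) and 12.03% of nuclear pairs in both columns together (11.997% to 12.07%). With that gene left out of the total, the latter share was 30.4% (30.28% to 30.44%). The reads carry no molecular identifiers and copies of a molecule cannot be recognised, so these intervals account for counting error alone. A pair on exons of both strands can also be entered in both columns, for different genes. Over the nuclear genes both columns together held 3215925 entries, against 3125072 unstranded pairs. The intervals treat each entry as separate and do not cover this. Without the gene with the most pairs, the same-strand share of the other genes was 98.5%.

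Strand shares of the 373 genes fell into 2 groups at the extremes. Besides the 113 same-strand genes, 198 genes had under 10% of their pairs in the same-strand column and are called opposite-strand genes here, whereas 62 genes lay between. Of the latter, 20 were at 80% to 90% and 11 at 10% to 20%, with 2 to 12 genes in each step of 10 percentage points from 20% to 80%. Among the same-strand genes the share had a median of 98.8% and quartiles of 97.3% and 99.6%. It exceeded 95% in 96 genes and 99% in 53. The opposite-strand pairs of these genes were few, with a median of 11 per gene, and 53 genes had under 10. Only 7 genes had 100 or more, with 829 at most.

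**Figure D1:**
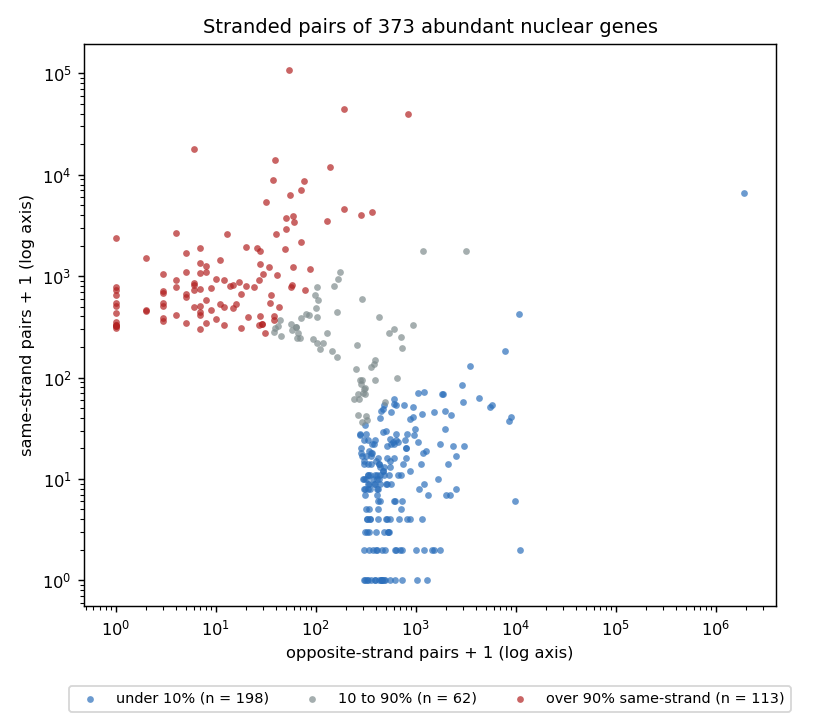
Same-strand pairs against opposite-strand pairs for each of the 373 abundant nuclear genes, with 1 added to each count and both axes logarithmic; each point is a gene. The 113 same-strand genes form a cloud with 0 to 829 opposite-strand pairs, apart from the 198 opposite-strand genes at the lower right, and 62 genes lie between.

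At the limit of 90%, the lowest genes inside were at 90.1% with 273 of 303 pairs on chromosome 19 (5145072 to 5327416), at 90.4% with 721 of 798 on chromosome X (139021569 to 139110582) and at 90.8% with 365 of 402 on chromosome 17 (77367467 to 77398391). The highest genes outside were at 89.6% of 414 pairs on chromosome 16 (94711169 to 94718984), 89.0% of 347 on chromosome 3 (12898545 to 13283623) and 88.6% of 889 on chromosome 12 (6757561 to 6777040). At the limit of 300 pairs, the genes inside had 303, 309 and 309 pairs, the last 2 on chromosome 14 (53802909 to 54078046) and chromosome 6 (170772270 to 170778425). Just outside were genes with 299 pairs on chromosome 11 (77246214 to 77246640), 295 on chromosome 15 (67284992 to 67665327) and 294 on chromosome 14 (88332153 to 88344006). The values ran on without a gap across both limits.

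In 13 of the same-strand genes no opposite-strand pair was counted. A count of 0 allows up to 3 pairs, which is an upper limit of 0.126% for the gene with the most pairs among them, on chromosome 7 (124998697 to 125065742) with 2380 same-strand pairs, and of 0.971% for the gene with the fewest, the one on chromosome 6 with 309. These 13 genes had 1 to 20 exon blocks and spans of 1684 to 1026689 bases, so that one-stranded counts were seen in short and in long genes. Among them were genes on chromosome 16 (2114953 to 2117150) and chromosome 6 (34103325 to 34216339) with unstranded counts of 0 and 1. Nearly all pairs of these genes were also entered for a gene on the other strand, as described further below. Counts of 0 in the lesser column were not particular to the same-strand genes. In the opposite-strand genes, same-strand pairs also went down to 0. Their median was 10, against a median of 11 opposite-strand pairs in the same-strand genes.

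The pairs were concentrated on few genes. The median was 798 pairs per gene with quartiles of 468 and 1815 and a range of 303 to 109263. The highest gene held 28.2% of the pairs of the 113 genes, the highest 3 held 50.3%, the highest 10 held 69.7% and the highest 20 held 79.97%.

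The gene with the most pairs was CHM13_G0044554, on the plus strand of chromosome 5 from 65510566 to 65538314. It had 109210 same-strand and 53 opposite-strand pairs, and its 1314 bases of exon lay in 5 blocks over 27749 bases. Only 1 nuclear gene of the 373, the opposite-strand gene on chromosome X with 1934778 opposite-strand pairs, had more pairs. Next was CHM13_G0009142, a single block of 2305 bases on the plus strand of chromosome 11 from 57691580 to 57693884, with 44253 same-strand and 189 opposite-strand pairs. CHM13_G0028483, on the plus strand of chromosome 19 from 38102912 to 38126908, followed with 39974 and 829. With only 494 bases of exon in 3 blocks, it was among the shortest of the 113. These 3 genes stood apart, as the next one had 17930 pairs in both columns together. That gene lay on chromosome 21 (42489225 to 42564212) and had 14 blocks.

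Ranks 5 to 10 ran from 13992 to 6424 pairs. The genes at ranks 5 and 6 were both on the minus strand of chromosome 6, at 33113016 to 33120304 with 13992 pairs and at 137444735 to 137477963 with 12039. Ranks 7 and 8 lay on the plus strand of chromosome 9, at 140002015 to 140021746 with 8855 pairs and at 107675874 to 107677275 with 8853. The latter, CHM13_G0056548, is described further below because its unstranded count was 0. Rank 9 lay on chromosome 5 (150394428 to 150481347) with 7075 pairs. Rank 10 lay on chromosome 3 (129714454 to 129769572) with 6424, and had 35 exon blocks. The genes at ranks 4 to 7, 9 and 10 thus had 14 to 35 exon blocks, unlike the 1 to 5 of ranks 1 to 3.

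Among ranks 11 to 20 the pairs fell from 5477 to 2666. Rank 11 was a single block on chromosome 17 (46000609 to 46002348), and rank 12, with 4834 pairs, lay on chromosome 12 (109072409 to 109086041). Rank 13 on chromosome X (52660456 to 52709071) and rank 14 on chromosome 2 (38750855 to 38760281) had 4684 and 4284 pairs. Their same-strand shares of 92.3% and 93.3% were the lowest of the first 20, with 363 and 286 opposite-strand pairs. Rank 15 lay on chromosome 11 (67994743 to 68008634) with 3968 pairs and rank 16 on chromosome 10 (74683897 to 74745983) with 3759. Chromosome 1 held ranks 17 to 19, at 110180902 to 110187442 with 3625 pairs, at 5992764 to 6045653 with 3476 and at 43321256 to 43324242 with 2975. Rank 20 lay on chromosome 12 (124792063 to 124814075), where 2663 of 2666 pairs were same-strand. Chromosomes 1, 2, 3, 5, 6, 9, 10, 11, 12, 17, 19, 21 and X thus shared the first 20 ranks.

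**Figure D2:**
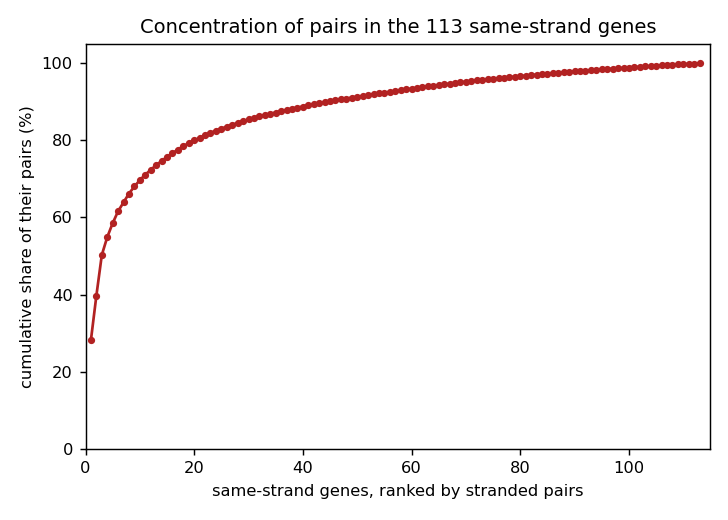
Cumulative share of the pairs of the 113 same-strand genes, in percent, against their rank by pairs; each point is a gene. The curve passes 50.3% at the third gene and 79.97% at the twentieth, and the other 93 genes share the rest.

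Per kilobase of exon, the order changed in part. CHM13_G0044554 had 83153 pairs per kilobase and CHM13_G0028483 had 82597, and these values were close although the first had 2.68 times the pairs of the second. CHM13_G0009142 followed with 19281 and CHM13_G0056548 with 6315. The median over the 113 genes was 193 pairs per kilobase with quartiles of 83.0 and 506, against 103 in the 198 opposite-strand genes and 76.9 in the genes between. Pairs and exon length both have a minimum in the selection, so these figures describe the genes that passed it.

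The proportion of same-strand genes was higher in classes with more pairs. It was 17.9% of 162 genes with 300 to under 500 pairs, 34.8% of 115 with 500 to under 1000 and 42.6% of 47 with 1000 to under 2000. Further up it was 44.8% of 29 genes with 2000 to under 5000 pairs and 8 of 16 with 5000 to under 20000. At 20000 or more there were 3 same-strand genes and 1 opposite-strand gene. In the first 4 classes, in the same order, opposite-strand genes made up 57.4%, 50.4%, 51.1% and 48.3%, and 8 of 16 in the fifth. The genes between accounted for 40 of the 162 in the lowest class and for none of the 20 with 5000 or more pairs. Among the 50 genes with the most pairs, 25 were same-strand and 23 opposite-strand.

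Exon structure was taken from the annotation of the authors and did not enter the strand limit. The 113 genes had a median exon length of 4720 bases with quartiles of 2306 and 7417. The opposite-strand genes had a median of 5752.5 bases, with quartiles of 3752 and 8784, and the genes between had 6821. All 48804 nuclear genes above the length limit and outside the short arms had a median of 1786 bases, so each of the abundant groups consisted of longer genes than the annotation as a whole. Since longer exons collect more pairs, the minimum of 300 pairs bears on this comparison. Exon lengths of at most 2000 bases were found in 23 of the 113 genes (20.4%), against 8.59% of the opposite-strand genes and 53.2% of the 48804. More than 10000 bases were found in 15 (13.3%) against 19.7% and 4.99%.

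The table lists exons of all transcripts of a gene, and overlapping exons were merged into blocks. The median was 9 blocks in the same-strand genes (quartiles 3 and 18), 12 in the opposite-strand genes (7 and 21), 13 in the genes between and 3 in the 48804 genes. The quartiles of the abundant groups overlapped widely. Genes of 1 block were 15 of 113 (13.3%), against 10 of 198 (5.05%), 5 of 62 (8.06%) and 25.7% of the 48804. At the other end, 20 same-strand genes (17.7%) and 51 opposite-strand genes (25.8%) had more than 20 blocks.

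The span from the first to the last exon base had a median of 24050 bases in the same-strand genes, with quartiles of 6892 and 86288. In the opposite-strand genes it was 29165, with quartiles of 11154.5 and 58815, which lie inside those of the same-strand genes. Spans at both ends were more frequent among the same-strand genes, with 23 genes (20.4%) at or below 5000 bases against 10.1% of the opposite-strand genes, and 23 genes (20.4%) above 100000 bases against 12.6%. Exons filled a median of 18.6% of the span, compared with 24.2% in the opposite-strand genes. Lower medians of exon length and block number thus went with a wider range between the quartiles of the span, and none of these differences was tested.

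**Figure D3:**
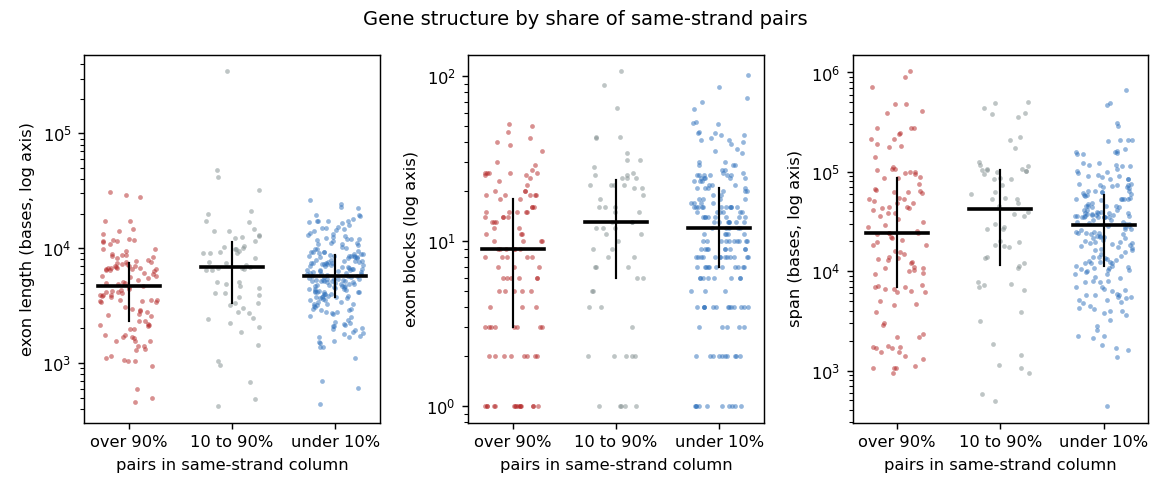
Exon length in bases, number of merged exon blocks and span in bases, on logarithmic axes, for 113 same-strand genes (over 90%), 62 genes between (10 to 90%) and 198 opposite-strand genes (under 10%); points are genes, thick lines medians and thin lines the range between the quartiles. The quartile ranges overlap in all 3 measures, and the same-strand genes have the lowest medians, at 4720 bases, 9 blocks and 24050 bases.

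The 15 genes of a single block were 947 to 2305 bases long, with a median of 1552, and held 18.0% of the pairs of the 113 genes. Their pairs had a median of 1094, from 324 to 44442, and a median of 707 pairs per kilobase. Apart from CHM13_G0009142, CHM13_G0056548 and the gene at rank 11, they had 324 to 1919 pairs. The 24 genes of 2 to 5 blocks included CHM13_G0044554 and CHM13_G0028483 and held 44.8% of the pairs, with a median of 708. The 54 genes of 6 to 20 blocks held 28.7% with a median of 843, and the 20 genes of more than 20 blocks held 8.58% with a median of 823. Medians of pairs thus lay between 708 and 1094 in the 4 classes of block number. The median pairs per kilobase fell from 707 through 223 and 174 to 80.6 as the number of blocks rose. Median exon length rose over the same classes, from 1552 through 2973.5 and 5661.5 to 8776.5 bases. Because the selection set a minimum of pairs, a shorter gene needed more pairs per kilobase to pass. The fall therefore cannot be assigned to block number.

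The 23 genes that spanned more than 100000 bases held only 4.51% of the pairs, with 303 to 1971 per gene. The longest ran over 1026689 bases of chromosome 7 (12857217 to 13883905) with 13302 bases of exon in 20 blocks, and all of its 322 pairs were same-strand. On chromosome 20 (8119252 to 9011527), a gene of 892276 bases and 51 blocks had 1952 same-strand and 19 opposite-strand pairs. Shares in these long genes ran from 90.1% to 100%, with a median of 98.3%, close to the median of all 113.

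The same-strand genes lay on 22 chromosomes, with none among the 4 abundant genes of chromosome 4. Chromosomes 2 and 3 had 11 each, and chromosomes 1, 8 and 19 had 9 each. Relative to the abundant genes of the chromosome, they were 9 of 12 on chromosome 8 and 11 of 19 on chromosome 3, but 9 of 40 on chromosome 1 and 3 of 23 on chromosome 12. By pairs, chromosome 5 held 30.5%, chromosome 11 held 13.6% and chromosome 19 held 12.68%, in each case mainly through 1 of the 3 highest genes. The 9 genes of chromosome 8 held 1.52%, with a median of 547. Numbers per chromosome are small, and no test was made.

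By strand of the gene, 46 were on the plus and 67 on the minus strand (59.3%), against 98 of 198 opposite-strand genes on the minus strand (49.5%) and 49.5% of the 48804. The plus-strand genes held 71.7% of the pairs, since the 4 highest genes are on that strand, but the median pairs were 833.5 on the plus and 779 on the minus strand. Consecutive same-strand genes on a chromosome had a median gap of 14.1 Mb, and 9 of 91 gaps were under 1 Mb. Such gaps depend on the number of genes, and no gaps of the other groups are given for comparison. The nearest, on chromosome 2, lay 1307 bases apart. One, with 467 pairs, occupied the minus strand from 3209986 to 3399951 and the other, with 351 pairs, the plus strand from 3401259 to 3507148, pointing away from each other. On chromosome 16, 3 of the gaps under 1 Mb lay between 282313 and 2117150 and joined 4 genes.

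Whether the pairs of a same-strand gene may belong to a gene on the other strand was examined with the unstranded counts and the exon coordinates. In 82 of the 113 genes (72.6%) the unstranded count was equal to the sum of the stranded counts, as in 75.3% of the opposite-strand genes, so that none of the counted pairs touched an exon of a gene on the other strand. In 102 genes it reached at least 94.0% of that sum. In 10 genes (8.85%), however, it was under 10%, and in 1 further gene it was 39.7%. Counts under 10% were also found in 9 opposite-strand genes (4.55%) and 3 genes between (4.84%), and in 22 of all 373 genes (5.90%). Each of the 10 same-strand genes shared exon bases with a gene on the other strand. The partner with the most opposite-strand pairs was in all 10 cases 1 of the 198 opposite-strand genes. A pair that touches exons of both genes is lost from the unstranded counts and enters the same-strand column of 1 gene and the opposite-strand column of the other. Shared exons and a partner with many opposite-strand pairs thus largely follow from the way of counting, and are given as description.

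Through this way of counting, the counts of these partners mirrored those of the same-strand genes. CHM13_G0056548 had 8817 same-strand pairs and an unstranded count of 0, and 711 of its 1402 bases lay on exons of a gene on the minus strand of chromosome 9 (107612621 to 107686696), which had 8870 opposite-strand pairs and an unstranded count of 57. The gene at rank 17 on chromosome 1 had 3497 same-strand pairs against 3502 opposite-strand pairs of its partner (110165448 to 110217172). At rank 19, the exons lay wholly within those of the partner (43260432 to 43324500), and the counts were 2926 and 2982. In these 3 genes, therefore, nearly all pairs were entered once for each of 2 genes, in different columns.

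Of the other 7, a gene on chromosome 16 (2114953 to 2117150) and its partner had 733 pairs each, and a gene on chromosome 19 (46714702 to 46724716) and its partner had 373 each. On chromosome 6 (34103325 to 34216339) the counts were 329 and 328, on chromosome 22 (19728078 to 19825060) 383 and 392, and on chromosome 17 (51733823 to 51778123) 681 and 699. The partner exceeded the same-strand gene by more on chromosome 12 (49089954 to 49150668), with 473 against 400, and on chromosome 11 (61938886 to 61954340), with 1266 against 746. That last partner had 534 unstranded pairs of its own. Which of both genes the shared pairs came from cannot be told apart in these tables. The gene with an intermediate unstranded count, on chromosome 2 (69973985 to 70114948), had 406 same-strand pairs, and its partner had 261 opposite-strand pairs.

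**Figure D4:**
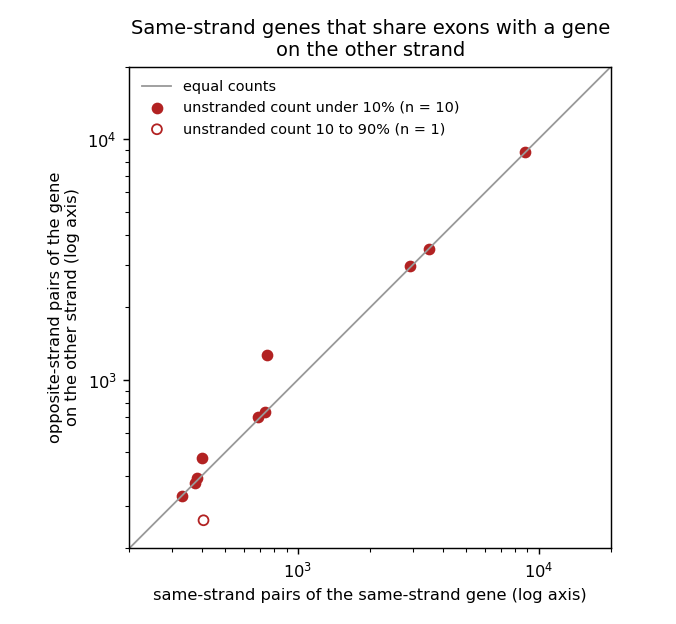
Same-strand pairs of 11 genes, on the horizontal axis, against the opposite-strand pairs of the gene on the other strand that shares exon bases with them, on logarithmic axes; filled points are the 10 genes with an unstranded count under 10% of the stranded count, and the open point is the gene at 39.7%. Most filled points lie on the line of equal counts, and the one farthest above it is at 746 and 1266. A pair that touches exons of both genes is counted on both axes, so near equality follows from the way of counting.

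The 10 genes held 19154 pairs, 4.95% of the pairs of the 113 genes. Over all 113 genes the unstranded counts summed to 367371, against 386941 pairs in both strand columns. Exon bases shared with any gene annotated on the other strand were in themselves not rare, being found in 46 of 113 same-strand genes (40.7%), 83 of 198 opposite-strand genes (41.9%) and 27 of 62 genes between (43.5%). In CHM13_G0044554 the shared stretch was 43 bases and in CHM13_G0009142 it was 41, and both had unstranded counts equal to the stranded sum. In CHM13_G0028483 no exon base was shared. Genes with and without such exons had median pairs of 853 and 778 and median shares of 98.7% and 98.8%.

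A gene annotated on the other strand lay over the span of 60.2% of the same-strand genes, 60.6% of the opposite-strand genes and 60.3% of all 373. The groups were thus alike in this. No gene at all was annotated on the other strand across the whole span of the other 45 same-strand genes (39.8%). These genes had 309 to 12039 pairs with a median of 688, held 21.2% of the pairs, and had unstranded counts of at least 98.0% of the stranded sum. Their shares ran from 90.8% to 100% with the same rounded median of 98.8% as all 113 genes. They included ranks 6, 7, 9, 10, 11 and 12, and an unannotated transcript on the other strand was not tested.

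Short genes of at most 350 bases of exon, such as those of small RNAs, lay within the span of 25 same-strand genes (22.1%), against 31.8% of the opposite-strand genes and 37.1% of the genes between. On exons, such a short gene was found in 5 (4.42%) against 14.1% and 16.1%. The 49 short genes inside the same-strand genes held 56 stranded pairs in all, and pairs that touch a short gene and an exon of the surrounding gene on the same strand are counted for neither. The most, 14, lay in 1 gene on chromosome 16 (38372040 to 38385287) with 433 pairs. The 88 genes with no short gene inside held 91.5% of the pairs. Exon overlap with any gene on the same strand was present in 17 of 113 genes (15.04%) and in 18.2% of the opposite-strand genes.

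A further measure that the limits did not use was the agreement of read counts with pair counts. The featureCounts table of the authors counts reads. A gene has exactly 2 reads for each unstranded STAR pair when both reads of every pair, and no other reads, were assigned to it. Ratios above 2 also occurred, so reads gained and lost could cancel, and a ratio of exactly 2 shows equal totals only. Among genes with at least 300 unstranded pairs, the ratio was exactly 2 in 88 of 102 same-strand genes (86.3%), 82 of 185 opposite-strand genes (44.3%) and 19 of 52 genes between (36.5%). In this library the proportion was thus higher in the same-strand genes than in either of the other groups. In the class of 300 to under 500 pairs the proportions were 23 of 24 same-strand genes and 37 of 90 opposite-strand genes, in that of 500 to under 1000 they were 35 of 37 and 20 of 53, and at 1000 or more they were 30 of 41 and 25 of 42. Among genes of more than 5 exon blocks they were 61 of 70 and 62 of 151, and among those of more than 20 blocks 14 of 18 and 18 of 49. For single-block genes the values were closer, at 10 of 14 and 6 of 9.

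**Figure D5:**
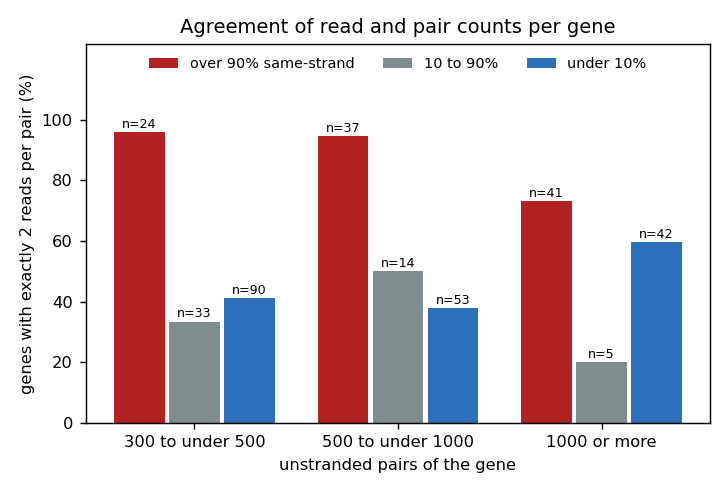
Percent of genes with exactly 2 featureCounts reads for each unstranded STAR pair, by class of unstranded pairs and by strand group (red, over 90% same-strand; grey, 10 to 90%; blue, under 10%), with the number of genes above each bar. The red bars are at 95.8%, 94.6% and 73.2% and the blue bars at 41.1%, 37.7% and 59.5%.

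The 14 same-strand genes that departed from 2 reads per pair had between 1.99 and 2.00 reads per pair and were together 93 reads off, with 37 as the most for 1 gene. In the opposite-strand genes the ratio ran from 1.91 to 2.49 and the 103 departing genes were 1346 reads off, with 148 as the most for 1 gene. In the genes between it ran from 1.95 to 2.13, and 33 genes were 263 reads off. Among the highest genes, CHM13_G0044554 had exactly 218526 reads for 109263 pairs, CHM13_G0009142 had 88894 for 44442 and CHM13_G0028483 had 81589 for 40803. Since genes are not replicates and 1 library was used, no test was made, and what separates the groups in this measure was not tested.

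In featureCounts reads, the 113 genes held 734677, which is 9.06% of all gene reads (95% interval 9.05% to 9.08%), or 17.4% with the highest nuclear gene, on chromosome X, left out of the total. Of the 113 genes, 102 had at least 600 reads, the number that corresponds to 300 pairs, and the other 11 were the genes with low or intermediate unstranded counts described above. Of those, 3, including CHM13_G0056548, were among the 20 same-strand genes with the most pairs and were listed at 0 reads by featureCounts, so that an unstranded table does not show them.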

How the data were processed

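From 1 library, 2 tables were used. The authors aligned cleaned reads to T2T-CHM13 v1.1 with STAR (version 2.7.6a per the labels, another in the methods). The deposited STAR counts give, for each gene, the pairs with a unique alignment, once regardless of strand and once by strand. The deposited featureCounts table (version 2.0.2) holds counts of single reads on exons of annotation release 4, unstranded per the file header. Neither count is normalized. A table of rDNA bins was not used.

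The tables were joined by gene, overlapping exons were merged into blocks, and genes were called overlapping when exons shared at least 1 base. Shares of pairs carry 95% Wilson intervals. The computations ran in Python 3.11.15 with pandas 2.3.3, numpy 2.4.6 and SciPy 1.17.1, with figures from matplotlib 3.10.9, and the code was tested on simulated data. By identifier are given the 2 same-strand genes with the most pairs and the 2 next per kilobase, and the first 20 by position. The depth after cleaning was 33677888 pairs. With 1 library, no test was made. The genes, limits and measures were chosen with earlier results of these data known. Alternatives were other limits on pairs, share, length and short arms, featureCounts reads, listed exons, whole spans and the removal of single genes.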

Additional observations from a re-analysis of the deposited data

How the results depend on the processing

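No paired analysis was possible because the control had 1 library only. The 113 same-strand genes became 245 with at least 100 pairs and 44 with at least 1000. Their share of nuclear stranded pairs, 12.03%, was 12.8% and 10.8% in these settings, 12.4% with a share over 80%, 11.5% with one over 95%, 14.2% with no minimum of exon length and 11.4% with at least 600 featureCounts reads. It was 8.63% without the highest same-strand gene, 30.4% without the highest nuclear gene in the denominator and 11.4% without the 10 genes of low unstranded count, a setting chosen after the data had been seen. With no minimum of exon length, which adds 41 short genes, the median exon length was 3018.5 bases, the median number of blocks 5, the median span 10443 bases, the share of single-block genes 36.4% and the share whose exons overlapped those of any gene annotated on the other strand 29.9%. Without the highest nuclear gene, also chosen after the data had been seen, 50.1% of nuclear stranded pairs were same-strand in place of 20.04%, and the featureCounts share was 17.4% in place of 9.06%. The median was 37 with exons as listed in place of 9 blocks, and 60.2% overlapped by whole spans. The remaining 43 values stayed within the interval of the main result or within 1.5 times the main count. For the measures of gene structure that interval was taken over the 113 genes, for example 3840 to 6058 bases for the median exon length. Genes are not replicates and the settings draw on overlapping genes, so staying within it is no measure of stability. Keeping the short arms added 0 genes. With no second library, how far these values would vary between preparations is unknown.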
